A study of Mus musculus with 7 samples.

Results

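This report describes the MET, KIT and discoidin domain receptor genes of 2 mouse sarcoma models, 7 genes of the 35727 in the deposited table. They were taken by symbol: the receptor tyrosine kinases Met, Mst1r, Kit, Ddr1 and Ddr2 (5 receptors) and the ligands Hgf and Kitl (2 ligands). All 7 were found, and all 7 passed the filter on low counts that left 13740 genes for testing. The data were polyA RNA-seq estimated counts of undifferentiated pleomorphic sarcoma cells, which come from soft tissue and resemble no normal cell type. Cells positive for red fluorescent protein were sorted from tumours that grew after the lines were transplanted into mice. Both lines began as mesenchymal stem cells of female C57/Bl6 p53KO mice, so all libraries share the p53 knockout, and both went through wild-type female mice as subcutaneous tumours before the final transplant. They differ in the retroviral vector, which carried Ccne1 (4 libraries, p53KO_Ccne1OE) or Vgll3 (3 libraries, p53KO_Vgll3OE). The labels name 1 line per model, and they give no age, promoter or number of animals, so an effect of the transduced gene and other differences between the 2 lines cannot be told apart. Whether every library had a tumour of its own is not stated either, so the p-values rest on a spread among libraries that may be technical.

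Receptor tyrosine kinases are single-pass membrane proteins that pair and phosphorylate each other when a ligand binds outside the cell. MET is the receptor of hepatocyte growth factor (HGF), which mesenchymal cells secrete as an inactive precursor and which drives scattering, migration and growth of MET-bearing cells. MST1R (RON) is the paralog of MET and binds macrophage-stimulating protein, the product of Mst1. KIT is the receptor of stem cell factor (the Kitl product) and is best known in mast cells, melanocytes, germ cells and blood progenitors; its ligand is made by stromal, endothelial and epithelial cells. DDR1 and DDR2 differ from the others in that their ligand is triple-helical collagen. DDR2 is typical of mesenchymal cells, and DDR1 of epithelial cells, although many tumours carry both.

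Library totals ranged from 21725890 to 53610300 counts. Vgll3 was 4.96-fold higher in the libraries labelled for it (edgeR adjusted p = 1.2e-05), whereas Ccne1 averaged 12.7 ± 5.61 CPM (SD, n = 4) where it is the labelled gene and 14.9 ± 2.16 CPM (SD, n = 3) in the other model (edgeR adjusted p = 0.609). CPM is a count scaled to a common library size. For this reason libraries are named by label only, and every fold is Vgll3-labelled over Ccne1-labelled. All 14 mesenchymal markers on the list were tested, of which 4 rose and 7 fell, beside 25.1% and 26.8% of all tested genes. Vim, the gene of vimentin, had the highest mean over all libraries and fell from 13973 ± 1413 to 4375 ± 237.7 CPM (edgeR adjusted p = 1.03e-05), below the collagen genes Col1a1 and Col1a2 in the Vgll3-labelled libraries. Defining markers of the cell types in which these receptors are otherwise known were low: the 10 mast cell markers summed to 0.182 to 1.21 CPM (Ccne1-labelled) and 1.25 to 2.74 CPM (Vgll3-labelled), with Fcer1a and Gata1 at 0 counts throughout and Hdc the highest. The 6 melanocyte markers, led by Tyr, summed to 0.683 to 1.04 and 0.729 to 3.85 CPM. The 10 epithelial markers summed to 3.67 to 6.37 and 2.49 to 4.15 CPM, with Krt5 at 0 counts in every library; Krt10 had the highest mean over all libraries, and Krt8 that in the Ccne1-labelled ones. The 11 leukocyte and macrophage markers summed to 60.0 to 80.8 and 13.3 to 25.1 CPM. Cd14 was 51.9 to 69.3 CPM of this in the Ccne1-labelled and 4.31 to 7.84 CPM in the Vgll3-labelled libraries. The 8 endothelial markers, led by Pecam1, summed to 45.8 to 127 and 30.7 to 222 CPM, the highest in Vgll3 replicate 3. Pecam1 alone was 184 CPM of that library's sum. Without Pecam1 the sum was 38.25 CPM there, below 56.05 CPM in Ccne1 replicate 1. The 12 skeletal muscle lineage markers summed to 432 to 512 and 247 to 460.5 CPM. Of 6 tested, 2 rose and 1 fell. The one that fell, Itga7, had the highest mean (451.9 ± 39.3 and 220.5 ± 53.1 CPM), and Cdh15 rose from 0.112 ± 0.111 to 141.3 ± 78.95 CPM. In a bulk library, fewer cells of a type and less RNA per cell cannot be told apart.

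Of the 4 members that differed, 1 ligand and 1 receptor went in each direction. Kitl rose 7.36-fold and Met rose 2.01-fold in the Vgll3-labelled libraries, while Hgf and Ddr1 fell 2.41-fold and 2.02-fold. Mst1r, Kit and Ddr2 did not pass the test. The edgeR test at an adjusted p of 0.05 thus called 2 members higher and 2 lower, 57.1% of the 7, against 51.9% of all tested genes (25.1% higher and 26.8% lower), so the share called is near that of any genes in this comparison. The 2 groups did not overlap for these 4 members, as for 55.7% of all tested genes.

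**Figure D1:**
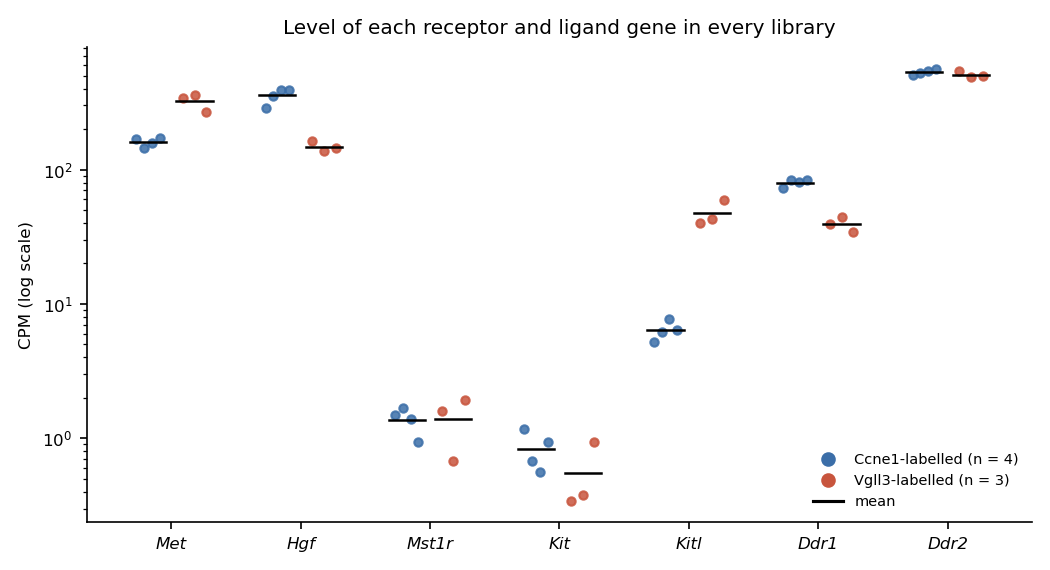
Level of each gene in CPM on a log axis, with 1 point per library (4 Ccne1-labelled, 3 Vgll3-labelled) and a bar at each group's mean. The groups stand apart for Met, Hgf, Kitl and Ddr1 and overlap for Mst1r, Kit and Ddr2.

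**Figure D2:**
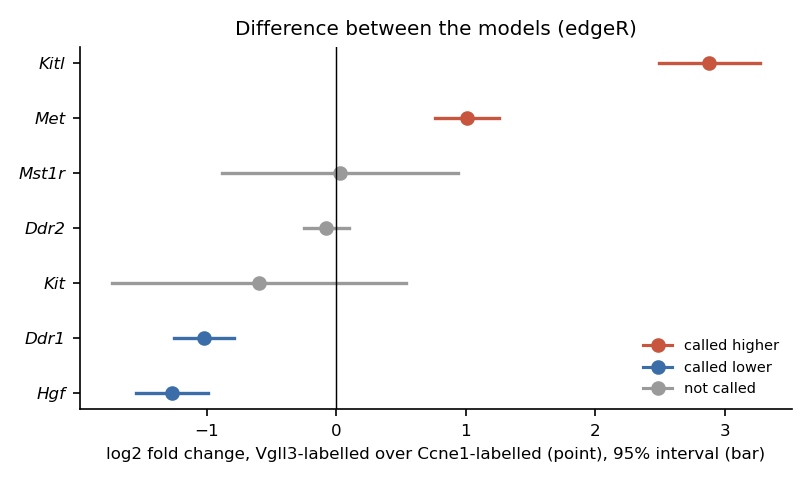
Log2 fold change of each gene, Vgll3-labelled over Ccne1-labelled, from the edgeR fit, with its 95% interval as a bar. Kitl lies farthest from 0 at 2.88, and the intervals of Mst1r and Kit are the widest.

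Parts of the start regions of the 4 genes that differed are shown. Each line is the part of RefSeq's promoter window (GRCm38.p6) that lies outside the annotated gene, 5′ to 3′ on the gene's strand, with CG dinucleotides in capitals. The parts are chr10:100015571-100015629 (+) for Kitl, chr6:17463707-17463799 (+) for Met, chr5:16553245-16553494 (+) for Hgf and chr17:35704622-35704849 (-) for Ddr1.
Kitl: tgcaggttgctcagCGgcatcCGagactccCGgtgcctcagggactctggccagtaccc
Met: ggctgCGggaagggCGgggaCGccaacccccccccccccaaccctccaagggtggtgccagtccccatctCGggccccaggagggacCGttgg
Hgf: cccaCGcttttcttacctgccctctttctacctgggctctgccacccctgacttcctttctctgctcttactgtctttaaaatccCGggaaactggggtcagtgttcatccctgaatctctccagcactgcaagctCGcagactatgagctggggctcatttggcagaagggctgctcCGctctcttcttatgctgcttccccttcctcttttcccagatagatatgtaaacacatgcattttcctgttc
Ddr1: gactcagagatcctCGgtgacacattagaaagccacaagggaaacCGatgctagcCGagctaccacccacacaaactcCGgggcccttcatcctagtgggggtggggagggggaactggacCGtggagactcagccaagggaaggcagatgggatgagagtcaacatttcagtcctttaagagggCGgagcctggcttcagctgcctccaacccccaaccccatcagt

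Over the whole 250 bases before the RefSeq start, Met and Kitl held 24 and 23 CG dinucleotides at 74.0% and 69.2% GC. Only 5 and 3 of these lie in the printed parts. Hgf held 4 at 50.8% GC, and Ddr1 held 7 at 56.8% GC before the outermost of its 4 listed starts. The median over 32851 such windows was 6 CG dinucleotides and 52.4% GC. The innermost Ddr1 start had 34 CG dinucleotides at 78.0% GC, and gene-level counts do not show which start was used. Of the members that were not called, Kit had 17 CG dinucleotides before its outer start and Ddr2 had 1. The letters GGAATG or their reverse CATTCC, the core bound by TEAD factors (the partners of VGLL3), were in none of the members' 13 windows and in 12.6% of all windows. The AP-1 letters TGANTCA were in the Met window and in 1 of 4 Ddr1 windows, against 6.75% of all, and the E-box CACGTG, a sequence bound by MITF among others, only in the Met window of the 13, against 6.02% of all. None of these AP-1 and E-box matches lies in a printed part. Both strands were searched, and a match is a description of the letters, not a site.

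Met (ENSMUSG00000009376, mm10 chromosome 6, 17463800 to 17573980, plus strand, protein-coding) had 168, 145, 157 and 172 CPM in Ccne1 replicates 1 to 4. It had 338, 362 and 268 CPM in Vgll3 replicates 1 to 3. Every Vgll3-labelled library was above every Ccne1-labelled one, with Vgll3 replicate 3 the lowest of its group. The means were 160.5 ± 11.9 (SD, n = 4) and 322.5 ± 48.4 CPM (SD, n = 3), a log2 fold change of 1.01 with SE 0.11 and edgeR adjusted p = 0.000106. A two-sided exact permutation test gave p = 0.0286, the smallest that the 35 splits of 7 libraries into 4 and 3 allow.

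Hgf, the ligand of MET (ENSMUSG00000028864, chromosome 5, 16553495 to 16620152, plus strand, protein-coding), went the other way. It had 288, 353, 392 and 393 CPM in Ccne1 replicates 1 to 4 and 163, 136 and 145 CPM in Vgll3 replicates 1 to 3. All 3 Vgll3-labelled libraries were below the lowest Ccne1-labelled one. The means were 356.5 ± 49.5 and 148.0 ± 13.8 CPM, a log2 fold change of −1.27 with SE 0.12 and edgeR adjusted p = 6.00e-05 (exact permutation p = 0.0286).

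Hgf counts relative to Met counts were lower in the Vgll3-labelled libraries. The ratio of Hgf to Met counts needs no scaling between libraries. It was 1.72, 2.44, 2.49 and 2.29 in Ccne1 replicates 1 to 4, and 0.483, 0.377 and 0.539 in Vgll3 replicates 1 to 3. Ligand counts were above receptor counts in every Ccne1-labelled library and below them in every Vgll3-labelled library, also per kilobase of exon (1.83 to 2.66 against 0.403 to 0.576). Whether the levels of the 2 genes cross depends on the length used. Per kilobase of longest transcript, Hgf was still above Met in every Ccne1-labelled library, but it was 47.0, 39.3 and 41.7 CPM against 49.6, 53.1 and 39.4 CPM for Met in Vgll3 replicates 1 to 3, below Met in the first 2 and above it in replicate 3. The mean log2 ratio was 1.14 ± 0.25 and −1.12 ± 0.26, a 4.79-fold drop (exact two-sided permutation p = 0.0286, Benjamini-Hochberg adjusted p = 0.0381 over 4 ratios). Met and Hgf each separated the groups, in opposite directions, so their ratio had to separate them too. Its p-value is therefore no evidence beyond the calls of the 2 genes.

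HGF and macrophage-stimulating protein act only after a protease has cut the precursor. Of 13 genes for Mst1, activating proteases and their inhibitors, 5 were tested, 3 rose and 0 fell, beside 25.1% and 26.8% of all tested genes. The median log2 fold change was 1.43, beside 0.01 over all tested genes. The plasminogen activators led: Plau (urokinase) rose by 1.79 on the log2 scale, with means of 100.6 ± 13.2 and 347.9 ± 150.3 CPM (edgeR adjusted p = 0.00300), and Plat by 1.49, with means of 182.5 ± 39.4 and 512.0 ± 27.3 CPM (edgeR adjusted p = 0.000115). St14, which encodes the membrane protease matriptase, was 0.517 ± 0.109 and 1.396 ± 1.115 CPM (edgeR adjusted p = 0.04997); its call ended when any single library other than Vgll3 replicate 1 was left out, and its log2 fold change of 1.43 was 0.55 without Vgll3 replicate 3. The dedicated activators Hgfac and Hpn and the inhibitors Spint1 and Spint2 were too low to test, with group means of 0.260 CPM or less.

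The listed signalling partners of MET were more often lower than higher. Of 29 tested adaptors, coreceptors and regulators, 14 fell, 6 rose and 9 were not called. Over all tested genes 26.8% were called lower and 25.1% higher. The list had a median log2 fold change of −0.17. The largest falls were in Stat3, a transcription factor activated downstream of MET (log2 fold change −1.12, edgeR adjusted p = 8.57e-05), the kinase Src (−1.09, from 237.5 ± 19.2 to 111.7 ± 5.62 CPM) and Cblb, a ubiquitin ligase of the CBL family that removes active receptors (−1.05). The largest rises were in the coreceptor Nrp1 (log2 fold change 2.38, 22.5 ± 4.80 to 116.2 ± 47.2 CPM, edgeR adjusted p = 0.00103), in Lrig1, whose membrane protein lowers receptor levels (1.13), and in the hyaluronan receptor Cd44 (0.61), of which some isoforms serve MET as coreceptors. Gene-level counts do not show Cd44 isoforms.

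Mst1r (ENSMUSG00000032584, chromosome 9, 107906873 to 107920383, plus strand, protein-coding), the paralog of Met, was present at 18 to 87 counts per library. It had 1.501, 1.675, 1.393 and 0.945 CPM in Ccne1 replicates 1 to 4 and 1.59, 0.680 and 1.94 CPM in Vgll3 replicates 1 to 3. The Vgll3-labelled group held both the lowest and the highest value. The fold was 1.02 with a 95% interval from 0.542 to 1.92 (edgeR adjusted p = 0.959), so changes within that interval were not detectable in these libraries. The sign of its log2 fold change of 0.03 depends on which libraries are used, and it was −0.25 without Vgll3 replicate 3. Its ligand gene Mst1, named after its values were seen, averaged 0.0874 CPM (Ccne1-labelled) and 0.00715 CPM (Vgll3-labelled) and was too low to test. The ratio of Met to Mst1r counts was 86.7 to 182 in the Ccne1-labelled and 138 to 532 in the Vgll3-labelled libraries, which overlap (exact permutation p = 0.0857, adjusted p = 0.0857).

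Kitl (ENSMUSG00000019966, chromosome 10, 100015630 to 100100416, plus strand, protein-coding), the ligand of KIT, had the largest difference of the 7. It had 5.23, 6.20, 7.77 and 6.43 CPM in Ccne1 replicates 1 to 4, from 115 to 322 counts. It had 39.9, 42.7 and 59.6 CPM in Vgll3 replicates 1 to 3, from 1130 to 1859 counts. The lowest Vgll3-labelled library was above the highest Ccne1-labelled one. The means were 6.41 ± 1.05 and 47.4 ± 10.7 CPM, a log2 fold change of 2.88 with SE 0.17 and a 95% interval of the fold from 5.61 to 9.66 (edgeR adjusted p = 8.36e-06, exact permutation p = 0.0286). Of the 13740 tested genes, 254 had a higher log2 fold change. Vgll3 replicate 3, the highest for Kitl, was also the highest for summed endothelial markers (222 CPM against 30.7 and 59.1 CPM in its group). Pecam1 alone was 184 CPM of the 222. Without Pecam1 the sums were 38.25 CPM against 11.1 and 23.8 CPM, and 56.05 CPM in Ccne1 replicate 1. The part of endothelial markers in the Kitl level of Vgll3 replicate 3 was not tested. Without that library the log2 fold change of Kitl was 2.69, with Kitl still called.

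Kit itself (ENSMUSG00000005672, chromosome 5, 75574916 to 75656722, plus strand, protein-coding) was the lowest of the 7, at 10 to 35 counts per library. It had 1.18, 0.674, 0.557 and 0.945 CPM in Ccne1 replicates 1 to 4 and 0.343, 0.378 and 0.937 CPM in Vgll3 replicates 1 to 3. Vgll3 replicate 3 lay among the Ccne1-labelled libraries, while the other two lay below all of them. The fold was 0.661 with a 95% interval from 0.301 to 1.46 (edgeR adjusted p = 0.346), and the log2 fold change of −0.60 was −1.19 without Vgll3 replicate 3 (edgeR adjusted p = 0.0631). The summed endothelial markers were 127, 45.8, 79.9 and 51.4 CPM in Ccne1 replicates 1 to 4 and 30.7, 59.1 and 222 CPM in Vgll3 replicates 1 to 3. Without Pecam1 they were 56.05, 23.4, 30.2 and 28.0 CPM and 11.1, 23.8 and 38.25 CPM, in the same order within each group. In the Vgll3-labelled group Kit and these markers had the same order over libraries. In the Ccne1-labelled group both were highest in replicate 1, but Kit was lowest in replicate 3, which was next highest for the markers, and the markers were lowest in replicate 2. The summed mast cell markers were 1.14, 1.21, 0.588 and 0.182 CPM in Ccne1 replicates 1 to 4 and 1.42, 1.25 and 2.74 CPM in Vgll3 replicates 1 to 3, higher in the group whose Kit mean was lower. These sums were low, and the groups parted only at 1.21 against 1.25 CPM. Of the 10 mast cell markers 2 were tested and 0 called. The sort for red fluorescent protein would remove host cells, and the part of any that remained in the Kit counts was not tested.

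The ratio of Kitl to Kit counts widened accordingly. It was 4.42, 9.20, 13.9 and 6.81 in Ccne1 replicates 1 to 4, and 116, 113 and 63.6 in Vgll3 replicates 1 to 3. Every library held more ligand than receptor counts, and the groups did not overlap. The mean log2 ratio was 2.98 ± 0.70 and 6.56 ± 0.49, an 11.9-fold difference (exact permutation p = 0.0286, adjusted p = 0.0381), with Kit counts as low as 10 in a library.

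**Figure D3:**
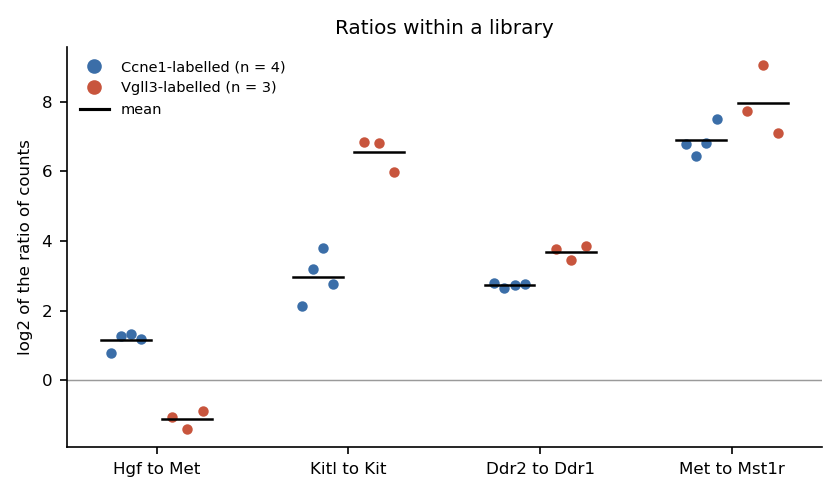
Log2 ratio of the counts of 2 members within each library, which needs no scaling between libraries, with 1 point per library and a bar at the mean of each group (4 Ccne1-labelled, 3 Vgll3-labelled). The Hgf to Met ratio lies above 0 in the Ccne1-labelled and below 0 in the Vgll3-labelled libraries, and the groups overlap only for Met to Mst1r.

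Among genes of KIT signalling and of the release of its ligand, 23 of 25 were tested. Beside 25.1% of all tested genes called higher and 26.8% lower, 10 of the 23 rose, 5 fell and 8 were not called (median log2 fold change 0.13). The rises were led by Fes, a cytoplasmic tyrosine kinase (log2 fold change 1.42, 2.07 ± 0.749 and 5.494 ± 3.6 CPM with overlapping groups, edgeR adjusted p = 0.0226), Mitf, the transcription factor of melanocytes and mast cells (1.4, 2.92 ± 0.747 and 7.71 ± 1.27 CPM, edgeR adjusted p = 0.00112), and Dok2, an adaptor that restrains kinase signalling (1.27). Fes was no longer called when Ccne1 replicate 2, 3 or 4 or Vgll3 replicate 3 was left out (0.75 in the last case), nor was Dok2 when Ccne1 replicate 3 or Vgll3 replicate 1 or 2 was. Mmp9, a matrix metalloproteinase that can release stem cell factor from the cell surface, fell by 2.66 on the log2 scale, from 257 ± 37.6 to 40.8 ± 10.2 CPM (edgeR adjusted p = 2.16e-05). The adaptors Sh2b2 (−1.47) and Grb10 (−1.41) fell too, the latter without a call when Vgll3 replicate 1 or 2 was left out. Adam17, another sheddase and named after its values were seen, was 71.2 ± 2.73 and 78.0 ± 0.676 CPM (edgeR adjusted p = 0.0995).

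Ddr1 (ENSMUSG00000003534, chromosome 17, 35681567 to 35704621, minus strand, protein-coding) had 72.5, 82.9, 80.85 and 83.5 CPM in Ccne1 replicates 1 to 4. It had 39.6, 44.7 and 34.3 CPM in Vgll3 replicates 1 to 3. All Vgll3-labelled libraries were below all Ccne1-labelled ones, with a spread within each group of about 5 CPM (79.9 ± 5.10 and 39.5 ± 5.20 CPM). The log2 fold change was −1.02 with SE 0.10 and edgeR adjusted p = 6.42e-05 (exact permutation p = 0.0286). Markers of epithelium, where Ddr1 is otherwise typical, were low beside it: the sum of all 10 was at most 6.37 CPM. Of the 2 tested, Krt8 fell (2.31 ± 1.08 to 0.111 ± 0.0665 CPM, edgeR adjusted p = 0.0002905) and Krt10 was not called (1.56 ± 0.530 and 2.46 ± 0.471 CPM). Their part in the fall of Ddr1 was not tested.

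Ddr2 (ENSMUSG00000026674, chromosome 1, 169972307 to 170110762, minus strand, protein-coding), the mesenchymal paralog, had the highest CPM of the 7, not adjusted for gene length, and was the most even. It had 504, 525, 542 and 563.5 CPM in Ccne1 replicates 1 to 4 and 540, 485 and 494 CPM in Vgll3 replicates 1 to 3. The groups overlapped, and the fold was 0.949 with a 95% interval from 0.843 to 1.07 (edgeR adjusted p = 0.430), from 11080 to 27300 counts per library. The ratio of Ddr2 to Ddr1 counts was 6.96, 6.34, 6.70 and 6.75 in Ccne1 replicates 1 to 4, and 13.6, 10.9 and 14.4 in Vgll3 replicates 1 to 3. The group means of this ratio differed 1.93-fold, the Vgll3-labelled above the Ccne1-labelled (exact permutation p = 0.0286, adjusted p = 0.0381).

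Most collagen ligand genes rose. Of 14 chains listed as ligands of the discoidin domain receptors, 12 were tested. Beside 25.1% of all tested genes called higher and 26.8% lower, 9 chains rose, 2 fell and 1 was not called. The tested chains had a median log2 fold change of 1.24. The largest rises were in Col11a1 (2.11), Col1a2 (2.04) and Col3a1 (1.96), all fibrillar chains. The chains that fell were Col4a1 (−2.54) and Col4a2 (−2.52), which form the type IV network of basement membranes and bind DDR1; without Vgll3 replicate 3 their log2 fold changes were −3.52 and −3.61, and the call for Col4a2 ended without Vgll3 replicate 2 (edgeR adjusted p = 0.0564). Earlier results on these samples already showed the collagen directions, so the list is no independent evidence of them.

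Downstream, all 22 listed adaptors, partners and effectors of the discoidin domain receptors were tested: 11 fell, 5 rose and 6 were not called (median log2 fold change −0.34). Over all tested genes 26.8% were called lower and 25.1% higher. Some genes of this list, Src and Pik3r1 among them, are also on the MET list. The largest falls were in Mmp13, the collagenase that DDR2 signalling is known to induce in cartilage (log2 fold change −5.31, 2199 ± 933 to 55.2 ± 68.1 CPM, edgeR adjusted p = 0.00937; −7.12 without Vgll3 replicate 1), in Ptk2b, which encodes the kinase PYK2 (−2.51, 178.2 ± 12 to 31.2 ± 2.39 CPM), and in Wwc1, which encodes KIBRA, a DDR1-binding scaffold of the Hippo pathway (51.1 ± 2.95 to 17.1 ± 1.89 CPM, −1.58). The largest rises were in the receptor Notch1 (1.33, not called without the filter on low counts, edgeR adjusted p = 0.0511), the phosphoinositide 3-kinase subunit Pik3r1 (0.52) and the metalloproteinase inhibitor Timp1 (0.49). Of 10 other receptors that bind fibrillar collagen, 6 were tested, 0 rose and 2 fell: the integrin chain Itgb1 (−0.46, edgeR adjusted p = 0.0103) and the endocytic receptor Mrc2 (−0.31, edgeR adjusted p = 0.00946).

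**Figure D4:**
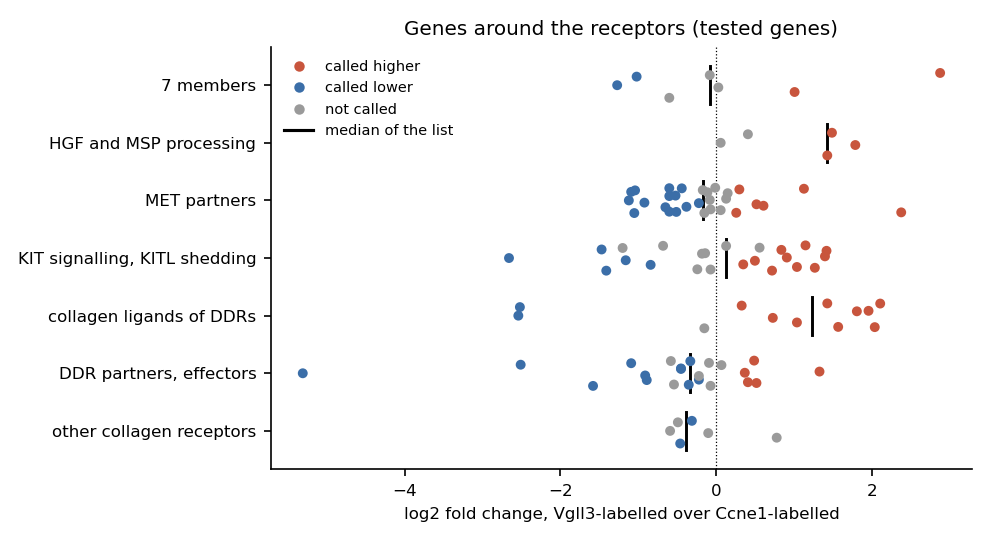
Log2 fold change, Vgll3-labelled over Ccne1-labelled, of each tested gene of the 7 members and of 6 lists around them, 1 point per gene, coloured by its edgeR call, with a bar at the median of each list. Collagen ligands have a median of 1.24 with 2 chains far below 0, and MET and DDR partners have medians of −0.17 and −0.34.

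Levels of different genes were compared as CPM per kilobase of exon. In the Ccne1-labelled libraries the order was Ddr2 (57.6 ± 2.71), Hgf (49.6 ± 6.89), Met (20.9 ± 1.55), Ddr1 (16.7 ± 1.07), Kitl (1.08 ± 0.177), Mst1r (0.275 ± 0.0622) and Kit (0.0942 ± 0.0315). Only Ddr2 and Hgf, neighbours in this order, overlapped between libraries, and with the longest transcript as the length Hgf came first (103 ± 14.3 against 62.1 ± 2.93), since the exons of Hgf span 7186 bases in all but 3468 in its longest transcript. In the Vgll3-labelled libraries the order was Ddr2 (54.7 ± 3.19), Met (42.0 ± 6.31), Hgf (20.6 ± 1.92), Ddr1 (8.28 ± 1.09), Kitl (8.01 ± 1.80), Mst1r (0.280 ± 0.1299) and Kit (0.0620 ± 0.0374). Met and Hgf changed places by their means, also with the longest transcript (47.4 ± 7.11 and 42.7 ± 3.97), where their libraries overlapped. Kitl reached the level of Ddr1, from which it did not differ beyond the spread.

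The members' neighbours on the chromosome were counted because tumour lines can differ over whole regions. Of genes that start within 1 Mb of Kitl, 10 were tested, 6 rose and 0 fell, with a median log2 fold change of 0.44. The largest rises among them were in Gm47628 (2.09, 306 kb away, 4.72 ± 0.215 and 20.13 ± 20.75 CPM) and Gm47630 (1.87, 305 kb away). Gm47630 was low, at 0.505 ± 0.192 and 1.84 ± 1.66 CPM, and its groups overlapped. Around Met, 5 were tested, of which Cav2 (0.75) and St7 (0.98) rose and 0 fell, with a median of 0.27. Around Hgf, 3 were tested and 2 fell, Cacna2d1 (−0.87) and Gm28710 (−1.49). These 6 neighbours were named after their values were seen. Kit lies in a cluster of receptor kinase genes: Pdgfra, 423 kb before it, fell by 2.02 on the log2 scale, from 919 ± 60.1 to 226 ± 46.1 CPM (edgeR adjusted p = 1.12e-05), while Kdr, 404 kb after it, was 3.48 ± 1.825 and 3.94 ± 3.15 CPM (edgeR adjusted p = 0.828). Of the 8 tested neighbours of Kit, 1 rose and 4 fell. In the gene-dense surroundings of Mst1r, 31 of 53 tested neighbours were called, 10 higher and 21 lower (median log2 fold change −0.2). Around Ddr1, 39 of 60 were called, 12 higher and 27 lower (median −0.24), and around Ddr2 8 of 12 (4 in each direction, median 0.16). These counts and those above stand beside 51.9% of all tested genes called (25.1% higher and 26.8% lower). Copy number was not measured here, and its part in any of these differences was not tested.

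**Figure D5:**
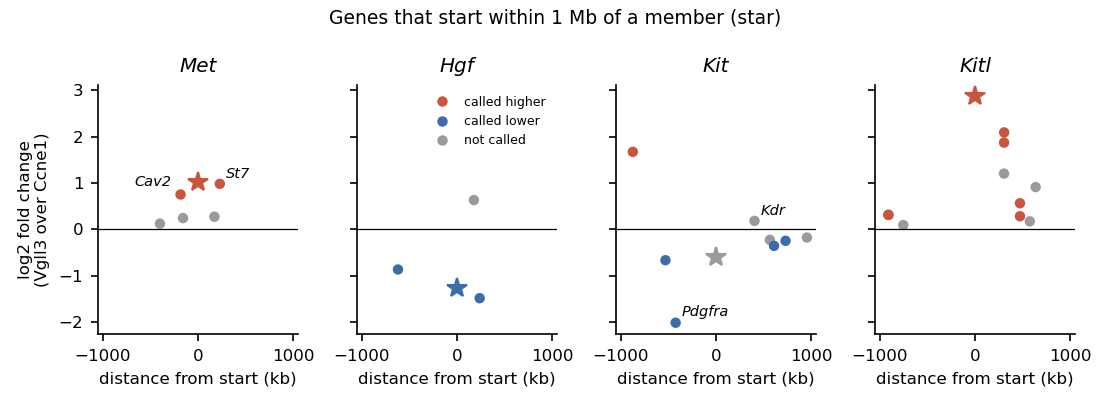
Log2 fold change, Vgll3-labelled over Ccne1-labelled, of tested genes against the distance of their start from that of Met, Hgf, Kit or Kitl (star), in kb, coloured by edgeR call. Near Kitl 6 of 10 neighbours were called higher (25.1% of all tested genes were), all below Kitl itself, and near Kit the receptor kinase Pdgfra had the lowest value.

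For each member, the genes with the most similar profile were sought among tested genes of at least 10 CPM, as the root mean square difference of log2 CPM over the 7 libraries after centring each gene. Met was closest to Bzw2 (0.052), Psmd9 (0.054) and Casp2 (0.060), and Hgf to Dnajc22 (0.097), Magee1 (0.103) and Usp12 (0.110). Ddr1 was closest to Dync1li1 (0.069), Cbarp (0.074) and Cx3cl1 (0.076), and Ddr2 to Depdc5 (0.017), Zfp275 (0.022) and Ube2e3 (0.029). The closest genes to Kitl were less alike: the membrane protein gene Apcdd1 (0.219), the mesenchymal cadherin Cdh11 (0.229) and the early response factor Egr1 (0.248), which rose by log2 fold changes of 3.03, 2.95 and 2.91. Kit was closest to Csrp2 (0.233), Hopx (0.266) and the endothelial cadherin Cdh5 (0.282), and Mst1r to Creb5 (0.212), Hspa1b (0.235) and Hlx (0.281). These are descriptions over 7 libraries that fall into 2 groups.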

How the data were processed

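The table deposited by the authors holds estimated counts for Ensembl genes in 7 library columns, whose totals differ, so they are unscaled. Salmon and the build mm10 are named in the submitters' processing notes. The Salmon version, annotation, summing to genes and use of strand: not given in the sources used here. All 7 libraries were used in the main test, and 0 values needed rounding.

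The test across genes was edgeR 4.0.16 in R 4.3.3 (filterByExpr defaults, TMM scaling, robust quasi-likelihood F test, model as sole term), with Benjamini-Hochberg adjustment over 13740 genes at 0.05. Each SE was taken as |log2 fold change| over √F. CPM use TMM-scaled library sizes. For single values, exact permutation over all 35 splits was used, two-sided. The test was checked on simulated counts. Symbols, coordinates and exon lengths came from GENCODE M21 (GRCm38, equal to mm10; 35493 of 35727 genes matched), and promoter windows from RefSeq (all 7 members matched). Gene-level counts do not separate isoforms, and annotated genes that overlap Hgf, Ddr1 or Ddr2 have no row in the table used here. A count of 3, the limit that a count of 0 allows, was 0.0577 to 0.137 CPM, which covers counting error only.

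Members, lists and motifs were chosen with earlier results of these data known. Named were the 7 members, the up to 3 called genes with the largest rise and fall of each pathway list, the most abundant gene of each marker list, the 3 genes most like each member and receptor kinases within 1 Mb. Exceptions are marked in the text, others are Col1a1, Cdh15, Fcer1a, Gata1, Krt5, Krt8, Hgfac, Hpn, Spint1 and Spint2, named for being abundant, at 0, low or called. Alternatives were DESeq2 1.42.0, limma-voom (limma 3.58.1), 2 other scalings, no filter, a replicate block (without Ccne1 replicate 4) and leaving out each library.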

Additional observations from a re-analysis of the deposited data

How the results depend on the processing

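Met, Hgf, Kitl and Ddr1 kept their direction and their call under all 13 alternatives, with log2 fold changes from 0.91 to 1.13, −1.36 to −1.18, 2.69 to 2.99 and −1.12 to −0.92, and in each alternative 2 members were called higher and 2 lower. Kit was not called in any (−1.19 to −0.34). Mst1r, never called, changed sign with limma-voom (−0.05), with the replicate block (−0.22) and when a library was left out (−0.25 to 0.34), and Ddr2, never called, with upper-quartile scaling (0.01). Pecam1, never called, ranged from −0.60 (without Vgll3 replicate 3) to 1.4 when a library was left out. Of 455 values for 35 other named genes, 428 kept their direction and side of the threshold.

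Same-numbered libraries did not deviate together: their deviations from the group means correlated at −0.151, −0.167 and −0.103. Each was the lowest value for its Vgll3 replicate, and the differently numbered pairs ran from −0.0356 to 0.155. Such correlations cannot show whether the numbers pair the libraries, which the labels do not state. The replicate block left out Ccne1 replicate 4, whose number no Vgll3-labelled library has, so it rests on fewer libraries than the main test. With the replicate block, 2 DDR partners were called higher, 0 other collagen receptors lower and 1 higher, and over all genes 2293 were called higher (3454 without the block). Of the genes named, St14 (adjusted p = 0.172), Fes (0.129), Notch1 (0.114), Mmp13 (0.0853), Itgb1 (0.0726) and Mrc2 (0.062) were not called with the block in edgeR. With RLE or upper-quartile scaling and with DESeq2, 1 other collagen receptor was called higher. Leaving out 1 library gave 0 to 1 there, and 1 to 2 collagen ligands called lower. With transcript length, 5 of 7 members kept their rank in the Ccne1-labelled libraries and 7 in the Vgll3-labelled ones. The causes were not tested. Kit and Mst1r had as few as 10 and 18 counts in a library. Of 11 sets of 4 Ccne1-labelled values checked for a library far from the rest, 0 held one. These sets hold no Vgll3-labelled library, so the check says nothing of Vgll3 replicate 3.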
